A study of Mus musculus with 6 samples.

Results

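The dual-specificity MAP kinase phosphatases are enzymes that take phosphate off both the threonine and the tyrosine of an active MAP kinase and so switch it off. The genes Dusp1, Dusp2, Dusp4, Dusp5, Dusp7, Dusp8, Dusp10, Dusp14 and Dusp16 were taken by name from the expression table, and all 9 were found among its 30315 genes. RNA-Seq had been carried out on primary renal tubular epithelial cells (TECs) of C57BL/6 mice, grown in culture. The 3 siSox9 libraries came from cells given a small interfering RNA (siRNA) against Sox9, and the 3 siNC libraries from cells given the control siRNA. All 6 libraries had the same hypoxia/reoxygenation (H/R) injury, with transfection 12 h earlier, then 6 h in glucose-free medium at 1.0% oxygen and 18 h of reoxygenation in complete medium, so no uninjured cells enter the comparison. A single siRNA against Sox9 is named in the labels, and they do not say whether the 3 libraries of a group are separate cultures or animals, so the p-values measure the spread between these libraries, which may be technical.

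MAP kinases form 3 main branches, ERK, JNK and p38, which carry growth factor and stress signals to the nucleus. The phosphatases against them close the loop: several are transcribed within minutes of kinase activation and then act on the kinase that induced them. Members differ in where they act and on which kinase. Dusp1, Dusp2, Dusp4 and Dusp5 encode nuclear enzymes that are induced by mitogens or stress, Dusp7 a cytoplasmic enzyme directed at ERK, and Dusp8, Dusp10 and Dusp16 enzymes that prefer JNK and p38. Dusp14 is a small enzyme without the kinase-docking domain of the others. In kidney tubules, MAP kinases are known to be activated by ischemia and reperfusion.

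All 9 genes encode the same kind of active site, a cysteine in the signature histidine, cysteine, 2 free positions, glycine, 2 free positions, arginine. The coding bases of the signature are given here from GRCm38 with the GENCODE M21 coding exons, 24 bases each on the coding strand. The codon of the catalytic cysteine is in capitals.
Dusp1: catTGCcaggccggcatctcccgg
Dusp2: cacTGCcaagctggcatctctcgc
Dusp4: cacTGCcaggccggcatctcccga
Dusp5: cacTGCgaagctggggtttcccgg
Dusp7: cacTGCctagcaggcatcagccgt
Dusp8: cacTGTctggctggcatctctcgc
Dusp10: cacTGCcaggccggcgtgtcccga
Dusp16: cacTGCttagctgggatctctcgc
Dusp14: cacTGTgcggcaggcgtgagccgc
Each gene held the signature once. Of its 8 residues, Dusp2 and Dusp4 shared all 8 with Dusp1, Dusp7, Dusp8, Dusp10 and Dusp16 shared 7, and Dusp5 and Dusp14 shared 6. In bases, Dusp4 was nearest to Dusp1 with 22 of 24 and Dusp14 farthest with 14 of 24. The differences between Dusp1, Dusp2 and Dusp4 in these letters were therefore synonymous. The cysteine is codon 258 of 367 in Dusp1 and codon 111 of 198 in Dusp14, the shortest protein of the 9, whereas Dusp8 (663 codons) and Dusp16 (660 codons) are the longest. In Dusp8 and Dusp16 the signature lies in exon 6 of 7. It lies in the last exon of the other 7 genes.

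The values are FPKM (fragments per kilobase of exon, scaled to the reads of the library), which can be set side by side between genes because they are per length. Library totals recovered from the values were 23893196 to 25725742 reads, and 3 reads on a gene with 1 kb of exon corresponded to 0.117 to 0.126 FPKM. Sox9, the target of the siRNA, was 8.87 ± 0.236 FPKM (SD, n = 3) with siSox9 and 26.0 ± 0.496 FPKM (n = 3) with siNC, 34.2% of the control level (log2 fold change -1.45, SE 0.0335, limma adjusted p = 7.03e-06). The share of FPKM on mitochondrial genes was 8.05 to 8.76% in the siSox9 libraries and 6.98 to 7.20% in the siNC libraries, without overlap. The gene Gm23935 held 6.35% of the FPKM of siNC replicate 3. The part of either in the results was not tested. Tubule markers were checked because the cells are labelled tubular. Keratins Krt8 (2123 FPKM with siSox9, 2089 with siNC) and Krt18 (1254 and 1194), Cdh1 (160.5 and 163.8) and Epcam (132 and 135) were high. The segment markers Slc34a1, Umod and Aqp2 were under 0.1 FPKM in both groups, and Lrp2, a receptor of the proximal tubule, was 2.41 and 2.13 FPKM. In bulk RNA, fewer cells of a type and less RNA per cell cannot be told apart.

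In the siNC cells after H/R, Dusp1 was the most abundant of the 9 and Dusp2 the least. The order of mean levels was Dusp1 (56.0 FPKM), Dusp14 (37.1), Dusp4 (33.4), Dusp5 (26.9), Dusp7 (21.7), Dusp10 (21.6), Dusp8 (13.2), Dusp16 (5.71) and Dusp2 (4.22). Neighbours in this order had separate ranges over the 3 libraries except Dusp7 and Dusp10, whose ranges overlapped. With siSox9 the order was Dusp1 (43.2 FPKM), Dusp4 (34.6), Dusp14 (30.5), Dusp5 (28.2), Dusp7 (22.4), Dusp10 (19.3), Dusp8 (15.8), Dusp16 (7.45) and Dusp2 (3.58), and only Dusp14 and Dusp5 overlapped. Dusp14 thus stood above Dusp4 in the control cells and below it after siSox9. All 9 genes cleared the minimum of 1 FPKM (mean of the 6 libraries) and entered the test.

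**Figure D1:**
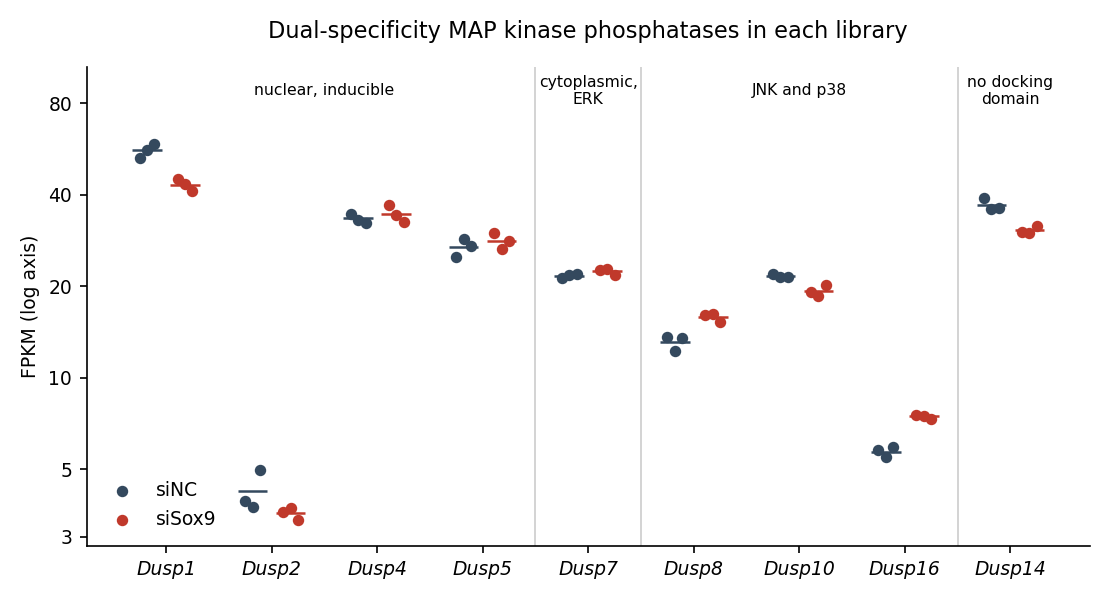
FPKM of each phosphatase gene (log axis) in each of the 6 libraries, siNC in dark blue and siSox9 in red, with a bar at the mean of 3 libraries. Genes are grouped as nuclear and inducible, cytoplasmic and directed at ERK, directed at JNK and p38, and without the docking domain. Dusp1, Dusp10 and Dusp14 lie lower with siSox9 and Dusp8 and Dusp16 higher, with no overlap between groups.

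Of the 9 genes, 5 passed the threshold between siSox9 and siNC, limma's adjusted p under 0.05 on log2(FPKM + 1). Dusp1, Dusp14 and Dusp10 fell, and Dusp8 and Dusp16 rose, while Dusp2, Dusp4, Dusp5 and Dusp7 did not pass. That is 55.6% of the 9, where 30.4% of the 12009 genes tested passed. By direction, 2 of 9 were higher against a background of 12.8%, and 3 of 9 were lower against 17.6%. The 3 libraries of a group did not overlap those of the other group for 6 of the 9 genes, the 5 above and Dusp2, against 46.3% of all genes tested. The median change of the 9 was 0.05 on the log2 scale, next to -0.01 for all genes. With 9 genes these shares are descriptions. For all 6 genes without overlap the exact two-sided permutation test gave p = 0.1, the smallest that 3 libraries against 3 allow.

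**Figure D2:**
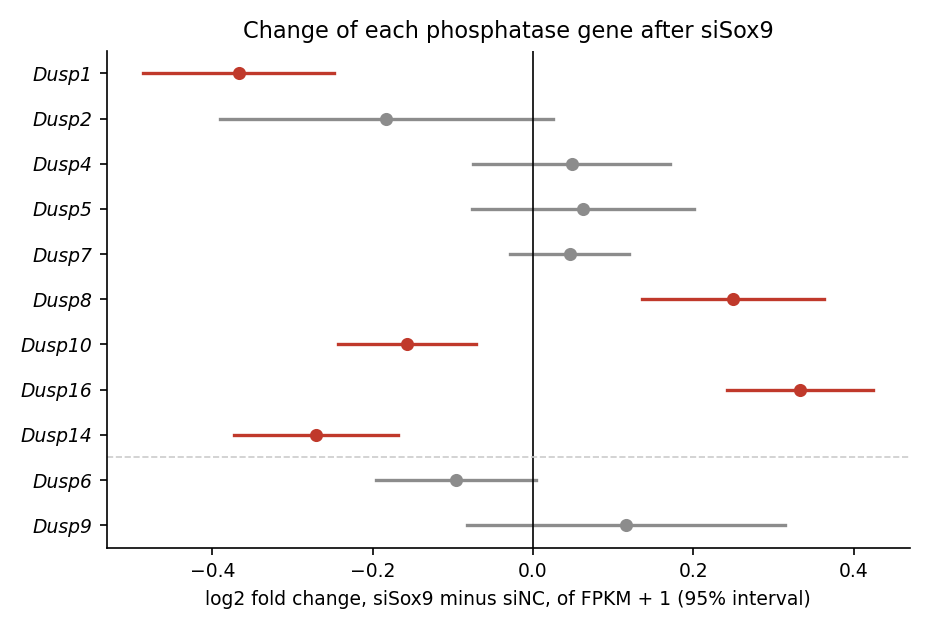
Log2 fold change of FPKM + 1, siSox9 minus siNC, of each phosphatase gene with the 95% interval from limma, red where adjusted p is under 0.05 and grey elsewhere; Dusp6 and Dusp9, under the dashed line, are the other cytoplasmic ERK phosphatases. Dusp1 has the lowest value at -0.37 and Dusp16 the highest at 0.33.

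Dusp1, the nuclear phosphatase that is induced by stress and acts on p38, JNK and ERK, fell past the threshold. It measured 45.1, 43.5 and 41.1 FPKM in siSox9 replicates 1 to 3 and 52.8, 56.3 and 59.0 FPKM in the siNC replicates. Every siSox9 library lay under every siNC library, by more than the spread within either group. The means were 43.2 ± 2.0 and 56.0 ± 3.08 FPKM (SD, n = 3 each), so that siSox9 cells held 77.1% of the control level (log2 fold change -0.37, SE 0.0506, 95% interval -0.49 to -0.25, limma adjusted p = 0.00217). These levels rest on 2647 to 3126 reads with siSox9 and 3537 to 3952 reads with siNC. Dusp1 (ENSMUSG00000024190) is listed on the - strand at chr17:26505590-26508519, and the signature bases lie at chr17:26506592-26506615 in exon 4 of 4. The Dusp1 transcript shares 11 exon bases with Ergic1 on the opposite strand.

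Dusp2, a nuclear phosphatase best known from immune cells, was the least abundant of the family. Its values were 3.61, 3.72 and 3.41 FPKM with siSox9 and 3.94, 3.74 and 4.98 FPKM with siNC. The groups did not overlap, but siSox9 replicate 2 and siNC replicate 2 were nearly level and siNC replicate 3 stood above the rest. The difference of 3.58 ± 0.157 from 4.22 ± 0.666 FPKM did not pass (log2 fold change -0.18, SE 0.0884, 95% interval -0.39 to 0.02, limma adjusted p = 0.160). Without siNC replicate 3 the log2 fold change was -0.08 (limma adjusted p = 0.346). Dusp2 had 163 to 248 reads per library, the fewest of the 9, and its signature is at chr2:127337616-127337639 on the + strand.

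Dusp4, a nuclear phosphatase of ERK and JNK, was at 37.1, 34.2 and 32.5 FPKM with siSox9 and 34.7, 33.1 and 32.4 FPKM with siNC. The groups overlapped, with siSox9 replicate 1 above every control library. The log2 fold change was 0.05 (SE 0.0523, 95% interval -0.08 to 0.17, limma adjusted p = 0.524; exact permutation p = 0.6). Without siSox9 replicate 1, the highest library, it was -0.0023. Dusp4 (signature at chr8:34818433-34818456, + strand) shared all 8 signature residues with Dusp1 but not its fall past the threshold. Whether their changes differ was not tested.

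Dusp5, a nuclear phosphatase selective for ERK, gave 29.8, 26.5 and 28.1 FPKM with siSox9 and 25.05, 28.6 and 27.2 FPKM with siNC. Its groups overlapped too (log2 fold change 0.06, SE 0.0591, 95% interval -0.08 to 0.20, limma adjusted p = 0.464; exact permutation p = 0.5). Of the Dusp5 exon bases, 547 (22.1%) are shared with the antisense gene AC137853.2, and without strand-aware counting, which is not stated, reads of the pair cannot be told apart. The signature of Dusp5 is at chr19:53540951-53540974 on the + strand. Among the 4 nuclear inducible genes, then, Dusp1 passed and the other 3 did not, and the intervals of Dusp4 and Dusp5 end at 0.17 and 0.20 above the control level on the log2 scale.

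Dusp7, the cytoplasmic ERK phosphatase, held the narrowest range of the 9 across all 6 libraries. It was 22.7, 22.7 and 21.8 FPKM with siSox9 and 21.3, 21.9 and 21.9 FPKM with siNC, with overlap between the groups. Its log2 fold change was 0.05 (SE 0.0315, 95% interval -0.03 to 0.12, limma adjusted p = 0.311; exact permutation p = 0.3). The signature of Dusp7 is at chr9:106373674-106373697, + strand, in exon 3 of 3. The other cytoplasmic ERK phosphatases did not pass either. Dusp6, the best known feedback phosphatase of ERK, was 19.3 ± 0.309 FPKM with siSox9 and 20.8 ± 1.1 FPKM with siNC (log2 fold change -0.10, 95% interval from -0.20 to a value just above 0, limma adjusted p = 0.130). Dusp9 was 5.14 FPKM with siSox9 and 4.68 FPKM with siNC (log2 fold change 0.12, limma adjusted p = 0.338). The groups overlapped for Dusp9 but not for Dusp6, which lay lower with siSox9.

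Dusp16, whose product anchors in the cytoplasm and acts on JNK and p38, had the larger of the 2 rises among the 9. It read 7.53, 7.49 and 7.34 FPKM in the siSox9 libraries and 5.78, 5.47 and 5.89 FPKM in the siNC libraries. The 3 siSox9 values lay close together and all above the highest control. The means of 7.45 ± 0.103 and 5.71 ± 0.219 FPKM put siSox9 cells at 130% of the control level (log2 fold change 0.33, SE 0.0389, 95% interval 0.24 to 0.42, limma adjusted p = 0.00109). With 1367 to 1511 reads against 1030 to 1142, this low level rests on more reads than the FPKM alone shows, because Dusp16 has 7798 exon bases. Its signature is at chr6:134720559-134720582 on the - strand.

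Dusp8, a JNK-directed phosphatase first described in brain, was 16.1, 16.2 and 15.2 FPKM with siSox9 and 13.6, 12.3 and 13.5 FPKM with siNC. All siSox9 libraries exceeded all siNC libraries. The level rose from 13.2 ± 0.752 to 15.8 ± 0.546 FPKM, to 120% of control (log2 fold change 0.25, SE 0.0482, 95% interval 0.14 to 0.36, limma adjusted p = 0.00836). Dusp8 shares 66 exon bases (1.36%) with Gm32786, a long noncoding RNA gene on the opposite strand. Dusp8 and Dusp16, the longest proteins of the 9 and alike in carrying the signature in exon 6 of 7, were the members that rose. The Dusp8 signature is at chr7:142083333-142083356, - strand.

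Dusp10, which acts on JNK and p38 in nucleus and cytoplasm, went the other way. Its values were 19.1, 18.6 and 20.2 FPKM with siSox9 and 21.9, 21.5 and 21.5 FPKM with siNC. The groups did not overlap, and the control libraries lay closer together than the siSox9 libraries. Dusp10 fell from 21.6 ± 0.241 to 19.3 ± 0.787 FPKM, 89.3% of control (log2 fold change -0.16, SE 0.0365, 95% interval -0.24 to -0.07, limma adjusted p = 0.0171). This was the smallest change that passed, and it did not pass without siSox9 replicate 1 (limma adjusted p = 0.0591), without siSox9 replicate 2 (0.0668) or when each library was rescaled to the same FPKM sum (TPM, 0.126). The signature of Dusp10 is at chr1:184074293-184074316 on the + strand.

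Dusp14, the small phosphatase without a docking domain, was second in level in the control cells. It was 30.1, 29.8 and 31.7 FPKM with siSox9 and 39.2, 35.9 and 36.1 FPKM with siNC, with no overlap. The level fell from 37.1 ± 1.82 to 30.5 ± 0.988 FPKM, 82.4% of control (log2 fold change -0.27, SE 0.0435, 95% interval -0.37 to -0.17, limma adjusted p = 0.00403). It was counted from 1472 to 1507 reads with siSox9 and 1685 to 1891 with siNC. Dusp14 has 1945 exon bases, the fewest of the 9, and its signature is at chr11:84048863-84048886, - strand. The atypical dual-specificity phosphatases, small enzymes of the same fold of which many act on substrates other than MAP kinases, were taken as a list of 15. Of these, 9 were tested, 2 fell and none rose, so that 22.2% passed against 30.4% of all genes. Their median change was -0.08 on the log2 scale. Those 2 were Dusp22, a phosphatase linked to JNK signaling (5.97 ± 0.402 with siSox9 and 7.28 ± 0.307 FPKM with siNC, log2 fold change -0.25, limma adjusted p = 0.0128), and Dusp18 (5.81 ± 0.252 and 6.53 ± 0.0831 FPKM, log2 fold change -0.15, limma adjusted p = 0.0327).

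Summed over the 9 genes, the phosphatase transcripts came to 205.1 ± 5.32 FPKM with siSox9 and 219.9 ± 2.35 FPKM with siNC (n = 3 each), a sum carried by the abundant members. Dusp1 made up 21.1 ± 0.565% of the sum with siSox9 and 25.5 ± 1.17% with siNC. The Dusp14 share was 14.9 ± 0.755% with siSox9 and 16.9 ± 0.937% with siNC. The shares of Dusp8 (7.71% against 5.98%) and Dusp16 (3.64% against 2.60%) were higher with siSox9. Dusp4, whose level did not pass the test, had 16.9% of the sum with siSox9 and 15.2% with siNC, since shares add to a fixed total.

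**Figure D3:**
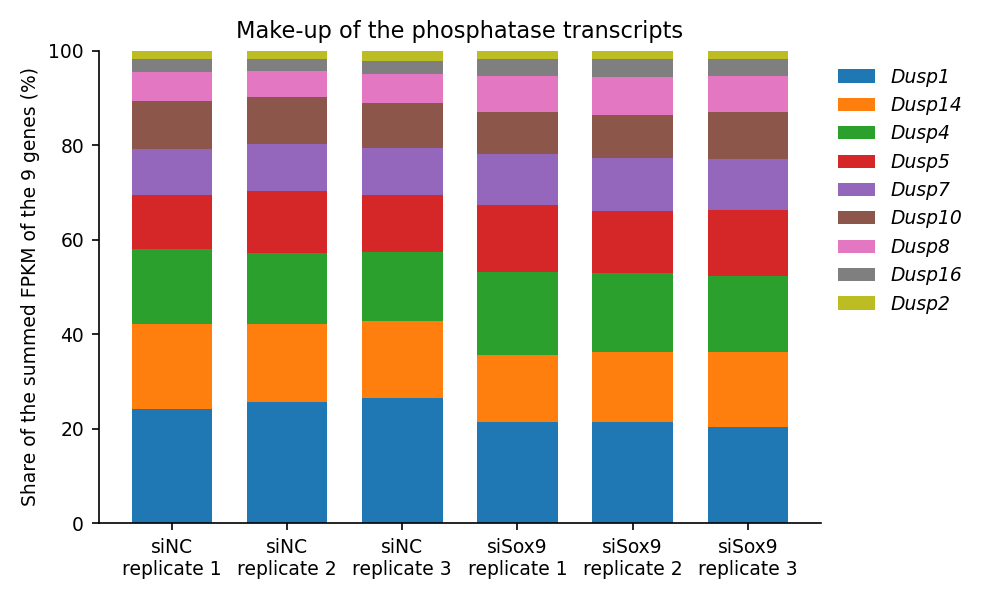
Share of the summed FPKM of the 9 phosphatase genes (%) that each gene held in each library, as stacked bars from 0 to 100. The Dusp1 share is 20.4 to 21.4% in the siSox9 libraries and 24.2 to 26.5% in the siNC libraries.

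Sequence features that the choice of genes did not use were read next. RefSeq promoter windows (GRCm38.p6, 250 bases before to 50 after the start) were found for 8 of the 9 genes, all but Dusp4. The cyclic AMP response element TGACGTCA, the same on both strands and the site class of the CREB and ATF factors, was present in Dusp1 and Dusp8 and in 1.79% of all 32851 windows. The Dusp1 window is chr17:26508423-26508722 and the Dusp8 window chr7:142095235-142095534, both on the - strand. They are printed 5′ to 3′ with the element in capitals, because these are the members of the 8 that hold it and their transcripts moved in opposite directions.
Dusp1: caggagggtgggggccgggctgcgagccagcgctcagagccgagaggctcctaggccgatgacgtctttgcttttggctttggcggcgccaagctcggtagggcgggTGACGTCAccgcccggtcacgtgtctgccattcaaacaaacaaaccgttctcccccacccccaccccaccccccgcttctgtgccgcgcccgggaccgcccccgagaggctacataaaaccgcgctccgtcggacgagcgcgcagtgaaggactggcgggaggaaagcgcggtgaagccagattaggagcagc
Dusp8: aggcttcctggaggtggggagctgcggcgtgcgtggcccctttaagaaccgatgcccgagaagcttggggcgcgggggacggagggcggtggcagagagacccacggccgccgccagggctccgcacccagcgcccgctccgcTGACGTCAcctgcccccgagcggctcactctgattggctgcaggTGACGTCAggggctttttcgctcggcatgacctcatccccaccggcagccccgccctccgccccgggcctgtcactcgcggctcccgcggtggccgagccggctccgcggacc
Counted from the start site, the element begins at position -143 in Dusp1 and at positions -107 and -63 in Dusp8. The E-box CACGTG was in Dusp1 and Dusp2 (7.15% of all windows), the EGR1 motif GCGGGGGCG or GCGTGGGCG in Dusp2 (3.47%) and the ETS motif CCGGAA in Dusp14 (14.9%). No member window held the AP-1 motif TGAGTCA or TGACTCA (5.20% of all windows) or the exact SOX letters AACAAT (10.7%), each searched on both strands. Other forms of the SOX motif were not searched, so the windows are not shown to lack one. The windows of the 8 genes were 61 to 78.7% G and C, against a median of 52.7% over all windows. A match is a description of letters and not a binding site.

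Inducible phosphatase transcripts are known to be short-lived through AU-rich elements, so the pentamer ATTTA was counted in the 3′ UTRs of GENCODE M21. Dusp1 and Dusp2 had 4 each, in UTRs of 690 and 581 bases, and Dusp8 had 5 in 2370 bases. Dusp10 and Dusp16 had 3, Dusp4 had 2, Dusp5 had 1, and Dusp7 and Dusp14 had none. The longer form TATTTAT, which contains the pentamer, was found 3 times in Dusp1, 2 times in Dusp8 and 1 time in Dusp2, and in no other member. Over the 10590 genes with a 3′ UTR, 66.9% had at least 1 ATTTA and 28.4% at least 1 TATTTAT, with a median of 1 ATTTA. Of the genes with the longer form, Dusp1 fell, Dusp8 rose and Dusp2 did not pass, and Dusp14, which fell, had neither form. Transcript stability was not measured, and its part in these changes was not tested.

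The kinases that these phosphatases act on were read from a list of 14 MAP kinases, of which 13 were tested, 1 rose and 2 fell. The share that passed was 23.1%, against 30.4% of all genes tested. Mapk13, the p38 delta kinase of epithelia, rose from 64.1 ± 1.58 to 78.7 ± 1.54 FPKM (SD, n = 3; log2 fold change 0.29, limma adjusted p = 0.000769). Mapk11, p38 beta, fell from 8.0 ± 0.143 to 6.18 ± 0.0678 FPKM (log2 fold change -0.32, limma adjusted p = 0.000660), and the atypical kinase gene Mapk4 fell from 5.79 ± 0.261 to 4.38 ± 0.312 FPKM (log2 fold change -0.34, limma adjusted p = 0.00434). Mapk3, which encodes an ERK (41.2 with siSox9 and 42.2 FPKM with siNC), did not pass, nor did the JNK genes Mapk8 (6.73 and 6.70 FPKM) and Mapk9 (9.99 and 9.87 FPKM) or the p38 alpha gene Mapk14 (24.5 and 24.8 FPKM). Mapk10, the neuronal JNK gene, was below the 1 FPKM minimum.

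Among 29 kinases that activate MAP kinases, 24 were tested, 3 rose and 6 fell, so that 37.5% passed against 30.4% of all genes. Map3k21 fell from 6.75 ± 0.104 to 3.90 ± 0.214 FPKM (log2 fold change -0.66, limma adjusted p = 0.000128), and Map3k11 from 23.6 ± 1.10 to 17.2 ± 0.840 FPKM (-0.43, limma adjusted p = 0.000864). Both encode mixed-lineage kinases, which act toward JNK. Map3k9, of the same family, rose from 7.05 ± 0.254 to 8.95 ± 0.433 FPKM (log2 fold change 0.31, limma adjusted p = 0.00289), as did Map3k14, a kinase of the noncanonical NF-κB pathway, from 10.3 ± 0.306 to 12.9 ± 0.261 FPKM (0.30, limma adjusted p = 0.00115). Of 11 kinases downstream of MAP kinases, 9 were tested, 2 rose and 3 fell, so that 55.6% passed against 30.4% of all genes. Rps6ka3, an ERK-activated ribosomal S6 kinase, fell from 12.2 ± 0.284 to 7.67 ± 0.182 FPKM (log2 fold change -0.61, limma adjusted p = 8.96e-05). Rps6ka6 fell from 1.23 ± 0.124 to 0.784 ± 0.110 FPKM (-0.32, limma adjusted p = 0.0248), a level at the filter. The stress-responsive kinase gene Rps6ka4 rose from 13.7 ± 0.478 to 16.1 ± 0.568 FPKM (log2 fold change 0.22, limma adjusted p = 0.00667), and Mknk2 from 22.7 ± 0.841 to 25.1 ± 0.942 FPKM (0.14, limma adjusted p = 0.0361).

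Transcripts that follow ERK activity were read from a list of 17 ERK output genes, of which 15 were tested, 3 rose and 2 fell. Their median was -0.03 on the log2 scale, and the 33.3% that passed were near the 30.4% of all genes tested. The ephrin receptor gene Epha4 rose from 16.3 ± 0.286 to 20.7 ± 0.103 FPKM (log2 fold change 0.33, limma adjusted p = 0.000364) and Ier3 from 282 ± 9.53 to 337 ± 9.88 FPKM (0.25, limma adjusted p = 0.00292). Etv5, an ETS factor downstream of ERK, fell from 7.0 ± 0.415 to 5.17 ± 0.438 FPKM (-0.38, limma adjusted p = 0.00504), and the AP-1 subunit gene Fosl1 from 11.5 ± 0.862 to 9.67 ± 0.567 FPKM (-0.22, limma adjusted p = 0.0307). The feedback inhibitor genes Spry1, Spry2, Spry4, Spred1, Spred2 and Spred3 were tested and did not pass.

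Immediate-early genes, which like Dusp1 respond to kinase signals without new protein, were taken as a list of 19. Of these, 15 were tested, 4 rose and 3 fell, so that 46.7% passed against 30.4% of all genes. Their median was -0.01 on the log2 scale. Egr1, a zinc finger factor, rose from 4.65 ± 0.364 to 9.73 ± 0.721 FPKM (log2 fold change 0.92, limma adjusted p = 0.000171), and the antiproliferative gene Btg2 from 66.7 ± 1.06 to 114.1 ± 3.15 FPKM (0.77, limma adjusted p = 4.82e-05). Ier5 fell from 37.9 ± 2.12 to 29.7 ± 1.56 FPKM (-0.34, limma adjusted p = 0.00350), and Klf4, a Krüppel-like factor, from 4.19 ± 0.461 to 3.16 ± 0.311 FPKM (-0.32, limma adjusted p = 0.0250). The lower Dusp1 was therefore next to both higher and lower genes of its own induction class. Over the 7 pathway lists, with 2, 9, 13, 24, 9, 15 and 15 genes tested, 31 genes passed, 13 higher and 18 lower. Of all genes tested, 30.4% passed, 12.8% higher and 17.6% lower. The share past the threshold ran from 0% of 2 tested genes in the other MAP kinase phosphatases to 55.6% of 9 in the downstream kinases. These lie on either side of the 30.4% of all genes, and with so few genes per list the shares are descriptions. Leaving out siNC replicate 3 brought the 31 to 20, and the share of all genes was not computed for that fit.

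**Figure D4:**
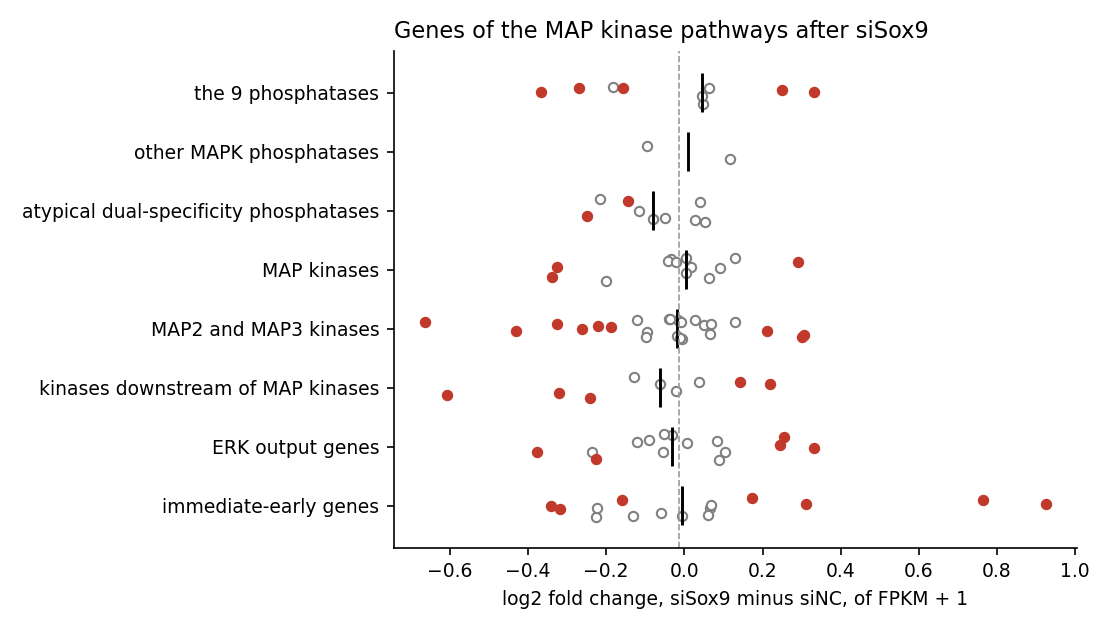
Log2 fold change of FPKM + 1, siSox9 minus siNC, of each tested gene in the 9 phosphatases and the 7 pathway lists, red where limma's adjusted p is under 0.05 and open elsewhere, with a black bar at each list's median and a dashed line at the median of all genes. Every list median lies between -0.08 and 0.05, and Egr1 and Btg2 are the points farthest to the right.

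The size of the change was greatest for Dusp1 on the log2(FPKM + 1) scale, whereas Dusp16 was ahead with a pseudocount of 0.1 (0.38 against -0.37), so the order of the pair depends on the scale. The genes whose pattern over the 6 libraries was most like that of Dusp1 were found by the root mean square distance of centred log2 values. They were the transcription factor gene Zbtb20 (distance 0.0141, 3.86 FPKM with siSox9 and 5.26 with siNC), the nuclear lamina gene Lmnb1 (0.0195, 26.3 and 33.8 FPKM) and Etv5 (0.0267, 5.17 and 7.0 FPKM). These libraries hold only 1 contrast, so likeness over them is mostly a like difference between the groups.

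Summed markers of the other cell types differed between the groups without overlap, as did 46.3% of all genes tested. The part of these sums in the results above was not tested. The summed FPKM of fibroblast markers was 6.72 to 8.27 with siSox9 and 8.51 to 9.61 with siNC. Of these markers, 7 of 8 were in the table, and Dcn was under 0.1 FPKM. The 1 above the 1 FPKM minimum, Col1a1, overlapped between the groups and did not pass (limma adjusted p = 0.118). Under the minimum, Thy1 (0.280 with siSox9 and 0.480 FPKM with siNC), Pdgfrb (0.591 and 0.763) and Col3a1 (0.200 and 0.280) were lower without overlap. Col1a2, Pdgfra and Dcn overlapped. Endothelial markers, 1 of 6 above the minimum, summed to 3.06 to 3.30 FPKM with siSox9 and 3.35 to 4.34 with siNC. That 1 gene, Cdh5, overlapped between the groups and did not pass (limma adjusted p = 0.449). Emcn (0.664 with siSox9 and 1.08 FPKM with siNC) and Pecam1 (0.570 and 0.677), both averaging under the minimum, were lower without overlap. Kdr, Tek and Tie1 overlapped. Immune markers, 4 of 8 above the minimum, summed to 103.7 to 114.1 FPKM with siSox9 and 92.6 to 99.2 FPKM with siNC. Most of that was Lyz2, which passed (83.4 ± 3.91 against 71.9 ± 3.78 FPKM, limma adjusted p = 0.0175). Cd68 (11.8 with siSox9 and 10.9 FPKM with siNC), Csf1r (9.38 and 9.66) and Adgre1 (2.43 and 2.215) overlapped and did not pass. Cd3e was under 0.1 FPKM and Ptprc at 0.653 and 0.724 FPKM. Podocyte markers, 1 of 4 above the minimum, summed to 7.82 to 8.58 FPKM with siSox9 and 12.2 to 12.5 with siNC. Nearly all of that sum was Podxl, which passed (7.48 ± 0.346 against 11.6 ± 0.159 FPKM, log2 fold change -0.57, limma adjusted p = 0.000158). Nphs1 was under 0.1 FPKM. Tubule epithelium markers, 8 of 12 above the minimum, summed to 3769 to 3925 FPKM and 3606 to 3809 FPKM, with overlap, and Cdh16 was the 1 of the 8 that passed (129.7 ± 0.424 against 100.9 ± 2.84 FPKM).

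**Figure D5:**
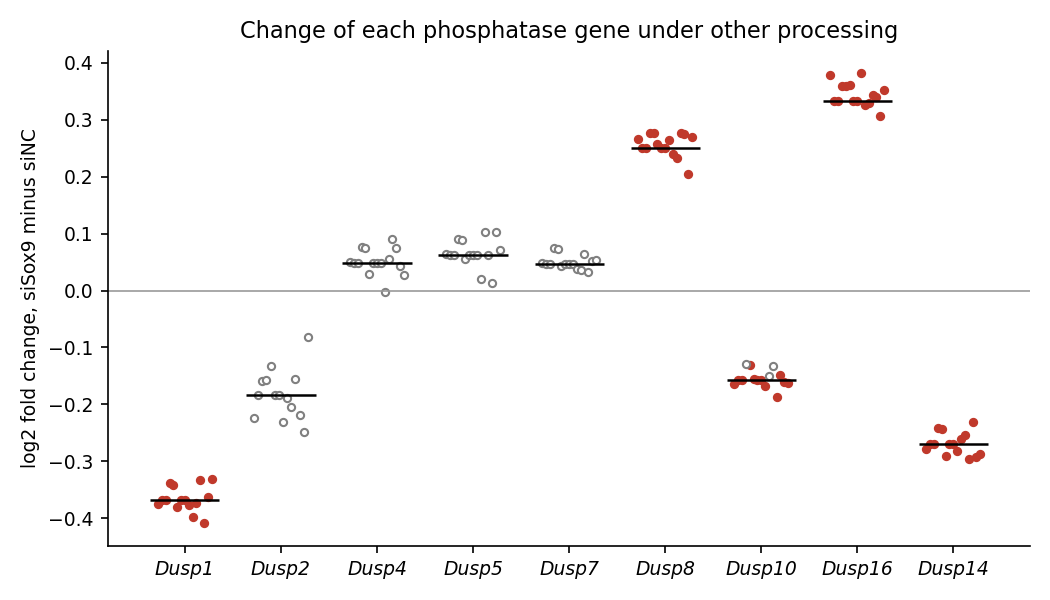
Log2 fold change, siSox9 minus siNC, of each phosphatase gene with a black bar at the value reported and a point for each other pseudocount, filter, scaling, model or left-out library, red where adjusted p is under 0.05; the fold limit is not drawn. Dusp1 stays between -0.41 and -0.33 and Dusp16 between 0.31 and 0.38, and Dusp10 has 3 open points.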

How the data were processed

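Mouse primary renal TECs were sequenced in 6 libraries, 3 siSox9 and 3 siNC, each collected after H/R. The values deposited by the authors are FPKM, 1 per gene and library, in a single table. The submitters' processing notes name HISAT2 2.1.0, Bowtie2 2.2.3, TopHat2 and the build mm9, without roles, whereas gene positions in the table are those of GRCm38: 93.1% of the 30315 genes have the same position in GENCODE M21. The counter, its use of strand and the annotation are not given in the sources used here. The siSox9 columns carry an siRNA number in place of the name Sox9, and siSox9 is the 1 siRNA in the labels that is not the control.

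From these FPKM, whole reads were recovered with GENCODE M21 exon lengths, and 94.6 to 94.7% of the values in each library came out whole within 0.02 reads. For Dusp1, the exons inside the position given in the table (2697 bases) were used. Groups were compared in R 4.3.3 by limma 3.58.1 (lmFit, then eBayes with its trend option, no replicate block) on log2(FPKM + 1), a scale that understates changes of low genes. The 12009 genes averaging 1 FPKM or more were tested, and a Benjamini-Hochberg adjusted p under 0.05 was called. Single members were also compared by an exact two-sided permutation test of mean FPKM. The limma test was checked on simulated data. Other steps ran in Python 3.11.15 (pandas 2.3.3, numpy 2.4.6, scipy 1.17.1, with matplotlib 3.10.9 for plots).

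The members and the gene lists were chosen with earlier results of these data known. Named genes are all 9 members, Sox9, in each pathway list the 2 largest rises and 2 largest falls past the threshold without overlap, the 3 genes most like the member with the largest log2(FPKM + 1) change past the threshold (Dusp1), and defining markers. The MAP kinase genes that did not pass, Dusp6, Dusp9 and the Spry and Spred genes were named after their values were seen. Same-numbered libraries of the 2 groups were checked for pairing. Alternatives were a pseudocount of 0.1, no filter on low values, a 5 FPKM minimum, quantile-normalized or median-centred values, TPM, a replicate block, an unmoderated linear model, an added fold limit of 1.2-fold, limma voom on the recovered reads, and leaving out each library.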

Additional observations from a re-analysis of the deposited data

How the results depend on the processing

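Over 16 alternatives (15 for Dusp2, which a minimum of 5 FPKM leaves out), Dusp1, Dusp14 and Dusp16 kept their direction and their side of the threshold, with log2 fold changes of -0.41 to -0.33, -0.30 to -0.23 and 0.31 to 0.38. Dusp8 (0.21 to 0.28) lost its call under an added limit of 1.2-fold, which was set on the log2(FPKM + 1) scale. Its ratio of mean FPKM, without the pseudocount, was 1.203. Dusp10 (-0.19 to -0.13) lost its call under that limit, with TPM (-0.13), without siSox9 replicate 1 (-0.15) and without siSox9 replicate 2 (-0.13). Under the limit, by its construction, 3 of the 9 genes were called, 1 higher and 2 lower, and 17 genes of the pathway lists. Dusp4 turned to -0.0023 without siSox9 replicate 1, the lowest value without 1 library, the highest being 0.091 without siSox9 replicate 3; its interval holds 0 in the value reported. Without 1 library at a time, 4 to 5 members and 20 to 30 pathway genes passed, the 20 without siNC replicate 3; the cause was not tested. The number of members without overlap was 6 to 7 there and 5 with TPM or quantile normalization. With 1 library left out, groups separate more easily. Shares over all genes were not computed without 1 library, with the fold limit or with the replicate block, nor for overlap under any alternative. These counts are therefore descriptions. Dusp2, Dusp5 and Dusp7 kept their direction and did not pass under any alternative run, but Dusp5 (0.06 as reported) was 0.013 without siNC replicate 1, 0.021 without siSox9 replicate 1 and 0.10 without siNC replicate 2 or siSox9 replicate 2. Dusp16 changed more than Dusp1 with a pseudocount of 0.1, TPM, median centring and limma voom, and without siSox9 replicate 3 or siNC replicate 3. Sox9 passed under every alternative run.

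Same-numbered libraries did not deviate together (correlations 0.0649, -0.0504 and 0.00784), so the replicate numbers were not taken as pairs; with a replicate block, 5 members passed, 2 higher and 3 lower, as did 29 pathway genes, and the log2 fold change of Sox9 was -1.45. Median centring shifted the median of all genes by 0.0266 and gave 1959 higher and 1765 lower calls (52.6% higher), where the values reported gave 1532 and 2118 (42.0% higher); with quantile normalization the count was 1812 and 1797. With limma voom on recovered reads 5 members passed, where 1505 of all genes were called higher and 2235 lower. Depth limits Dusp2 most, at 163 to 248 reads per library.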
